A study of Rattus norvegicus with 50 samples.

Results

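Printer-emitted particles (PEPs) are the aerosol that a laser printer releases while it runs, a mixture of toner-derived carbon, metals and organic compounds that reaches the deep lung when inhaled. The results below compare the lungs of rats that carried a radio telemetry transmitter and breathed PEPs with the lungs of rats that carried the same transmitter and breathed clean air. The PEP_D21T group held 4 lungs and the Air_D21T group held 4 lungs, together 8 of the 50 lungs in the series. They were chosen by their group labels alone. All rats were male Sprague-Dawley animals, bought at 9 weeks of age and acclimatized for 1 week. Rats of the PEP_D21T group inhaled printer B1 emissions, gases included, in whole-body chambers for 5 hours a day over 21 days, and rats of the Air_D21T group inhaled HEPA-filtered room air on the same schedule. All 8 rats shared the implant and the day, so nothing here describes the effect of the implant. Day 21 rats without an implant (PEP_D21, 6 lungs, and Air_D21, 6 lungs) served only to show where the implanted rats differed. The labels give neither the exposure year nor the chamber or plate of a given lung, so such batches could not be examined. The labels do not state that each array came from its own rat, and p-values therefore measure the spread between these samples.

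Lung answers an inhaled particle through several known programs. Polycyclic aromatic compounds activate the aryl hydrocarbon receptor, which switches on cytochrome P450 enzymes such as Cyp1a1. Electrophiles and metals release the factor NRF2, which drives antioxidant genes, and injured or particle-laden cells secrete cytokines that call in leukocytes. Slower layers run underneath these programs in the rodent lung: the circadian clock, a loop in which Bmal1 and Clock switch on the Per and Cry genes that then repress them, and the adrenal glucocorticoid hormones, which act through their nuclear receptor on genes such as Fkbp5 and Zbtb16.

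Values are log2 intensities from RMA (robust multi-array averaging) on an Affymetrix whole-transcript array, so 1 unit is a factor of 2 and a level cannot be compared between genes. The median over named genes in these 8 lungs was 6.24, with quartiles at 3.41 and 7.92. The tissue labels say lung, but the description field mentions blood. The surfactant gene Sftpc lay between 13.1 and 13.2 in all 8 lungs and the club cell gene Scgb1a1 between 12.2 and 12.6, far above the median, and 7 of 9 lung markers could be named, all at 8.58 or above. Over all named genes the 8 lungs correlated with each other between 0.982 and 0.993, and no pair was identical. Since whole lung was measured, fewer cells of a type and less RNA per cell cannot be told apart in any result below.

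Of 8202 genes tested with limma, 1 passed a Benjamini-Hochberg adjusted p below 0.05 (0.0122% of those tested). This was Fam111a, which was lower in the PEP_D21T lungs, and 0 genes were higher. At an unadjusted p below 0.05 there were 458 genes (5.58% of those tested), where 410 would be expected if no gene differed, with 315 of them higher in PEP_D21T lungs and 143 lower. A difference of 1.5-fold or more was seen for 74 genes higher in PEP_D21T lungs (0.902%) and 90 genes lower (1.10%), and 39 genes differed by 2-fold or more, 8 of them higher and 31 lower. Without PEP_D21T replicate 1 the 1.5-fold genes numbered 284, without Air_D21T replicate 1 they numbered 247 and without Air_D21T replicate 2 they numbered 261, against 164 with all lungs. The median log2 difference over all tested genes was 0.03 and the median standard error of a difference was 0.198. All PEP_D21T lungs lay above all Air_D21T lungs for 162 genes (1.98%) and below all of them for 82 genes (1.00%).

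**Figure D1:**
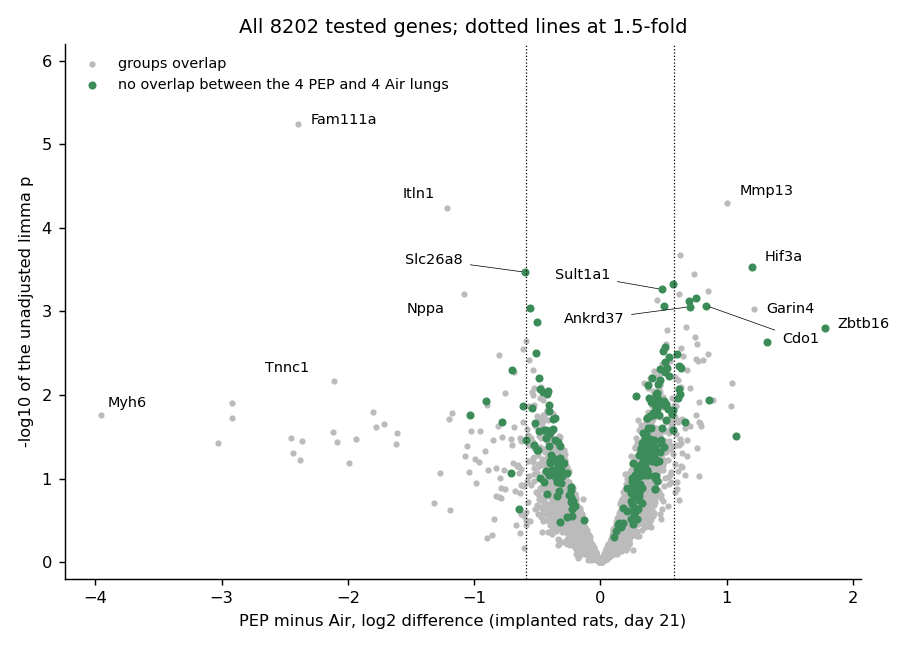
Difference and limma p for all 8202 tested genes. Each point is a gene, the x axis gives the PEP minus Air log2 difference in implanted rats, the y axis the negative log10 of the unadjusted p, and green points are genes whose 4 PEP and 4 Air lungs did not overlap. Fam111a stands highest although its groups overlap, and the far left holds heart muscle genes such as Myh6 whose p-values are modest.

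The sequences below show the stretch just upstream of 3 genes that the results turn on: the gene that passed the test (Fam111a), the glucocorticoid-induced gene with the smallest p (Sult1a1) and the clock gene with the largest difference (Per2). They are RefSeq sequences of build GRCr8, 150 bases each, written 5′ to 3′ on the gene's own strand and ending at the base before the gene's first annotated base. They lie at chr1:219065392-219065541 on the plus strand for Fam111a, at chr1:190706113-190706262 on the minus strand for Sult1a1 and at chr9:99497070-99497219 on the minus strand for Per2. Capitals mark AGAACA, the half-site of the glucocorticoid receptor, in Sult1a1, and TTATGTAA, the D-box bound by Dbp and its relatives, in Per2.
Fam111a: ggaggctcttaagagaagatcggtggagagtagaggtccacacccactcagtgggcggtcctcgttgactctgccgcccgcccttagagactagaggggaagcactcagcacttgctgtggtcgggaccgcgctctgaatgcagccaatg
Sult1a1: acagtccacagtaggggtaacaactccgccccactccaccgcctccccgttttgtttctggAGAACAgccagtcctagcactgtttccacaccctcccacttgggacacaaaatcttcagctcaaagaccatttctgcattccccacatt
Per2: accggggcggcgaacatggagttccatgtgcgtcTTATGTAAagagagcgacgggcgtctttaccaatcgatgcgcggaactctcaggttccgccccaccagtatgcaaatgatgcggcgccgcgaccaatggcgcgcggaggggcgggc
The half-site and the D-box as spelled above, and the E-box CACGTG, were searched on both strands in the 250 bases before each start site of the RefSeq table. The E-box can share its end bases with the half-site. The half-site stood in 17.5% of all 33469 upstream stretches, and in 1 of the 9 stretches matched to tested genes of the glucocorticoid list. The E-box, bound by Bmal1 and Clock, stood in 5.59% of all stretches and in 1 of the 11 stretches matched to tested clock genes. The D-box stood in 0.828% of all stretches and in 1 of those same 11, that of Per2. None of the motifs was found in the Fam111a stretch shown. These are matches of letters in a short window, not measured binding.

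Fam111a encodes a nuclear serine protease that helps replication forks pass protein crosslinks and that restricts the growth of some viruses. It had log2 values of 4.92, 4.71, 7.91 and 4.64 in the PEP_D21T lungs, against 8.01, 7.69, 7.38 and 8.41 in the Air_D21T lungs. Of the PEP_D21T lungs 3 were low, while PEP_D21T replicate 3 stood among the Air_D21T lungs, so the groups overlapped. The group means were 5.54 ± 1.58 for PEP_D21T and 7.87 ± 0.44 for Air_D21T (SD, n = 4 each). The fitted difference was -2.39 ± 0.469 (SE), a 5.25-fold lower level, with an adjusted p of 0.0472 by limma. An exact two-sided permutation test over the 8 lungs, added after the data were seen, gave p = 0.0857 where the smallest p that 70 splits allow is 0.0286. The 95% interval of the fitted difference ran between -3.34 and -1.45. The call was lost without PEP_D21T replicates 1, 2 or 4 (adjusted p = 0.0994, 0.298 and 0.124) and without Air_D21T replicates 1, 3 or 4 (0.0717, 0.0772 and 0.354), while without PEP_D21T replicate 3 the adjusted p was 6.39e-06 at a difference of -3.15. It was also lost with equal array weights (0.0901), without the variance filter (0.103), with robust moderation (0.131), with only the 8 arrays (0.974) and with the replicate block (0.0706).

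The whole series held the same low and high levels. Over all 50 lungs, 43 lay at or below 5.83 and 7 at or above 7.38, with an empty stretch of 1.55 log2 units between them, and the next widest gap between neighbouring lungs was 0.31. The 7 high lungs were PEP_D21T replicate 3, all 4 Air_D21T lungs, 1 PEP lung of day 1 and 1 Air lung of day 1. Of the lungs without an implant, 20 of 21 PEP lungs and 20 of 21 Air lungs were at the low level. At day 21 without an implant, Fam111a averaged 4.92 ± 0.194 in PEP lungs and 4.73 ± 0.135 in Air lungs (SD, n = 6 each). The Air_D21T lungs and PEP_D21T replicate 3 thus stood above the level common in the series, and the other PEP_D21T lungs were at it.

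**Figure D2:**
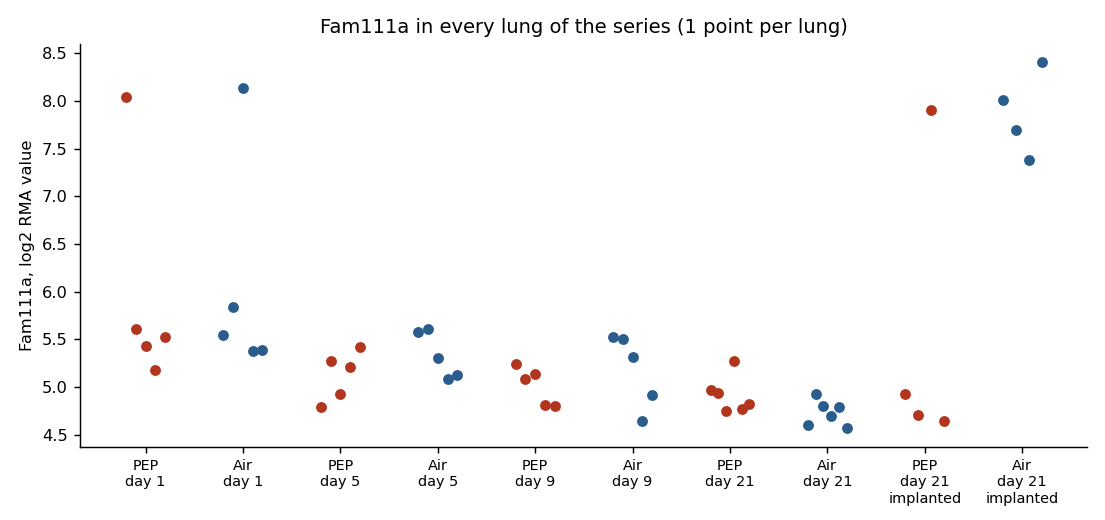
Fam111a in all 50 lungs. Each point is 1 lung, red for PEP and blue for Air, by day and with the implanted rats at the right, and the y axis is the log2 RMA value. All lungs fall at or below 5.83 or at or above 7.38, and all 4 implanted Air lungs and 1 implanted PEP lung are in the upper set.

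Genes that glucocorticoid hormones induce were higher in PEP_D21T lungs throughout the list, although none passed the adjusted test. All 10 of the tested genes on this list had a positive difference, where 56.1% of all tested genes did, and their median difference was 0.33 on the log2 scale against 0.03 over all genes. There were 4 with an unadjusted p below 0.05 (background 5.58%), namely Zbtb16, Sult1a1, Klf9 and Fkbp5, and 2 of these, Zbtb16 and Sult1a1, had all PEP_D21T lungs above all Air_D21T lungs (1.98% of all tested genes). Klf9 was named after its values were seen, and the list was chosen with earlier results of these data known. Without an implant 8 of the 10 had a positive difference, with a median of 0.25.

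Zbtb16, a zinc finger transcription factor used as a sensitive readout of glucocorticoid action, had log2 values of 9.01, 10.17, 9.37 and 9.22 in PEP_D21T lungs, against 6.98, 7.84, 7.18 and 8.62 in Air_D21T lungs. All PEP_D21T lungs were above all Air_D21T lungs, and the nearest values were 9.01 in PEP_D21T replicate 1 and 8.62 in Air_D21T replicate 4. The difference was 1.78 ± 0.531 (SE), or 3.43-fold, with an adjusted p of 0.564 by limma. Without an implant the day 21 difference had the same sign, at 0.89. Its level ran widely among the other Air lungs too, between 6.72 and 10.2 over days 1, 5, 9 and 21 without an implant.

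Sult1a1, a sulfotransferase that conjugates phenols and hormones, had values of 10.80, 11.05, 10.97 and 11.11 in PEP_D21T lungs, against 10.42, 10.50, 10.30 and 10.71 in Air_D21T lungs. The groups did not overlap: the nearest values were 10.80 in PEP_D21T replicate 1 and 10.71 in Air_D21T replicate 4. The difference was 0.49 ± 0.132 (adjusted p = 0.38), next to 0.38 without an implant. Fkbp5, a co-chaperone that dampens the glucocorticoid receptor, had 7.33, 8.54, 7.96 and 8.20 in PEP_D21T lungs, against 6.87, 7.34, 7.10 and 7.59 in Air_D21T lungs. Only PEP_D21T replicate 1 fell below an Air_D21T lung, and the difference was 0.79 ± 0.333 (adjusted p = 0.844). Klf9, a Krüppel-like repressor, differed by 0.68 ± 0.232 (adjusted p = 0.748). The other 6 tested members, Per1 among them, had differences between 0.06 and 0.44. Averaged over the list after centring each gene, the 4 PEP_D21T lungs lay between 0.07 and 0.57 and the 4 Air_D21T lungs between -0.48 and 0.02. Leaving out each of the 8 lungs in turn kept the list's median difference between 0.27 and 0.41.

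Hif3a, Cdo1 and Ankrd37 were among the 12 genes with the smallest p at 1.5-fold or more higher in PEP_D21T lungs, and none of them passed the test. Hif3a, a hypoxia-inducible factor subunit that restrains the other HIF proteins, had 5.23, 6.12, 5.26 and 6.29 in PEP_D21T lungs, against 4.30, 4.36, 4.35 and 5.05 in Air_D21T lungs. No PEP_D21T lung fell below an Air_D21T lung, with Air_D21T replicate 4 the nearest. The difference was 1.20 ± 0.308, or 2.30-fold (adjusted p = 0.38), next to 0.46 without an implant. Cdo1, the dioxygenase that commits cysteine to taurine and sulfate, had 9.83, 10.68, 10.25 and 10.57 in PEP_D21T lungs, against 9.49, 9.25, 9.50 and 9.82 in Air_D21T lungs. The lowest PEP_D21T lung and the highest Air_D21T lung nearly met, at 9.83 and 9.82. The Cdo1 difference was 0.84 ± 0.235 (adjusted p = 0.38), next to 0.56 without an implant. Ankrd37, a gene induced by hypoxia, had 5.59, 6.44, 5.52 and 6.71 in PEP_D21T lungs, against 5.35, 5.28, 5.46 and 5.42 in Air_D21T lungs. Its PEP_D21T lungs split into replicates 1 and 3, at 5.59 and 5.52, and replicates 2 and 4, at 6.44 and 6.71, while the Air_D21T lungs stayed together. The Ankrd37 difference was 0.71 ± 0.2 (adjusted p = 0.38), and without an implant it had the other sign, at -0.31. A test of the difference between these effects gave an adjusted p of 0.529 for Ankrd37.

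The hypoxia list as a whole had 9 tested members, 8 of them with a positive difference (56.1% of all tested genes), a median of 0.24 and 3 with an unadjusted p below 0.05 (5.58% of all tested genes). Besides Ankrd37 these were Pfkfb3, a glycolytic regulator, at 0.43 ± 0.187, and Edn1, the vasoconstrictor endothelin, at 0.68 ± 0.291, both with an adjusted p of 0.844. Edn1 was highest in PEP_D21T replicate 2, at 10.57, and its difference was as low as 0.31 when 1 lung was left out. The list average set 2 lungs apart: PEP_D21T replicates 2 and 4 stood at 0.33 and 0.34, PEP_D21T replicates 1 and 3 at -0.07 and -0.02, and the Air_D21T lungs between -0.19 and -0.11.

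**Figure D3:**
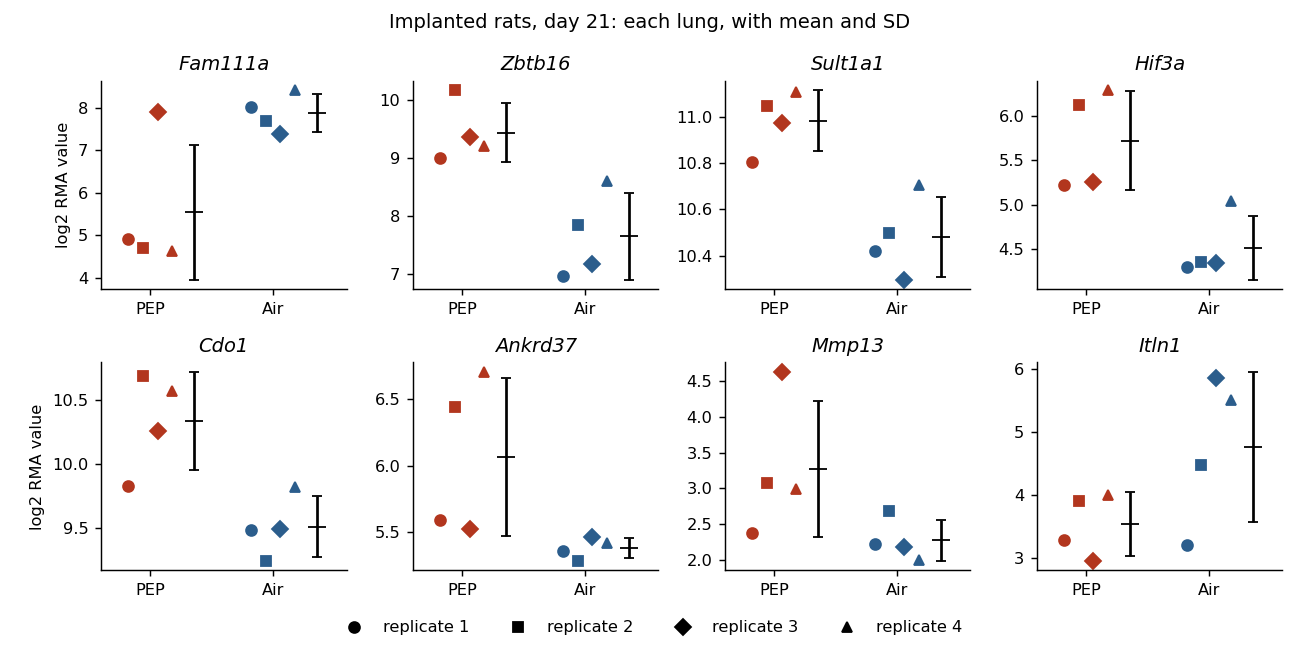
Log2 RMA values of 8 genes in each implanted lung, PEP left and Air right, with a marker shape for each replicate number and the group mean with its SD beside the points. Zbtb16, Sult1a1, Hif3a, Cdo1 and Ankrd37 have no overlap between the groups, while Fam111a, Mmp13 and Itln1 each have lungs that cross over.

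Of the other genes named for a small p among those higher in PEP_D21T lungs, none passed the test. Mmp13, a collagenase, had 2.38, 3.08, 4.63 and 2.996 in PEP_D21T lungs, against 2.22, 2.68, 2.18 and 2.00 in Air_D21T lungs. These are low levels, PEP_D21T replicate 3 was far above the rest, and PEP_D21T replicate 1 lay inside the Air_D21T range. The difference was 1.01 ± 0.226, or 2.01-fold (adjusted p = 0.16). Ibsp, a bone matrix sialoprotein, was at 2.11, 2.53, 2.99 and 3.05 in PEP_D21T lungs, against 2.11, 2.01, 2.11 and 1.90 in Air_D21T lungs (adjusted p = 0.38), again with PEP_D21T replicate 1 at the Air_D21T level. Without PEP_D21T replicate 1 both genes passed the test, Mmp13 with an adjusted p of 0.0023 and Ibsp with 0.0175, and without Air_D21T replicate 2 Mmp13 passed with 0.0285. Without PEP_D21T replicate 3 the differences shrank to 0.56 for Mmp13 (adjusted p = 0.796) and 0.50 for Ibsp (adjusted p = 0.893), and without PEP_D21T replicate 4 that of Ibsp was 0.51 (adjusted p = 0.888).

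Epor, the erythropoietin receptor, had no overlap, at 3.76, 4.22, 4.14 and 3.995 in PEP_D21T lungs against 3.24, 3.63, 3.33 and 3.19 in Air_D21T lungs, a difference of 0.70 ± 0.194. Cntfr, the receptor subunit for ciliary neurotrophic factor, differed by 0.74 ± 0.194, and only Air_D21T replicate 2 reached the lowest PEP_D21T lung (6.58 in PEP_D21T replicate 1, 6.69 in Air_D21T replicate 2). Cspg4, a proteoglycan of pericytes, differed by 0.63 ± 0.171, and Sbk1, a kinase, by 0.85 ± 0.231. All of these had an adjusted p of 0.38. Without an implant the differences were 0.12 for Epor, 0.52 for Cntfr, 0.05 for Cspg4 and 0.14 for Sbk1. Nkx2-8, a homeobox factor, differed by 0.75 ± 0.231 (adjusted p = 0.662). Garin4, a gene of the Golgi known from testis, differed by 1.21 ± 0.344, with PEP_D21T replicate 2 at 6.58 while the other PEP_D21T lungs lay between 3.38 and 3.74 and the Air_D21T lungs between 3.02 and 3.70. Without that lung the Garin4 difference was 0.30.

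Among the genes lower in PEP_D21T lungs after Fam111a, Itln1 had the smallest p. It encodes intelectin, a lectin of mesothelium and mucosa that binds microbial sugars, and had 3.29, 3.90, 2.95 and 4.005 in PEP_D21T lungs, against 3.21, 4.48, 5.85 and 5.50 in Air_D21T lungs. Air_D21T replicate 1 lay within the PEP_D21T range and the other 3 Air_D21T lungs above it. The difference was -1.21 ± 0.274 (adjusted p = 0.16), and it passed the test without Air_D21T replicate 1 (-1.80, adjusted p = 1.89e-06) and without Air_D21T replicate 2 (-1.54, adjusted p = 0.0137). It was -0.75 without Air_D21T replicate 3 (adjusted p = 0.667) and -0.76 without Air_D21T replicate 4 (adjusted p = 0.741). The mesothelium list did not share this order: 6 of its 8 tested members had a positive difference, with a median of 0.10.

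Slc26a8, an anion transporter, had no overlap, at 5.24, 4.91, 5.13 and 5.23 in PEP_D21T lungs against 5.91, 5.62, 5.57 and 5.71 in Air_D21T lungs. Its difference was -0.59 ± 0.154 (adjusted p = 0.38), and its relative Slc26a4, the anion exchanger pendrin, differed by -0.91 ± 0.346 (adjusted p = 0.843), also with no overlap. The kinase Aurka, which builds the mitotic spindle, differed by -0.61 ± 0.194 (adjusted p = 0.72). Its cell cycle list held 14 tested members, 5 of them positive, with a median of -0.06. C1qtnf9, a secreted relative of complement C1q, had no overlap and differed by -0.70 ± 0.238. This gene has 2 probe sets, of which the brighter was used. Its difference lay between -0.74 and -0.37 over the other processing settings, the latter less than 1.5-fold. Klk13, Xkr5, Serpinb6b and Vch, at -0.59, -0.80, -0.68 and -0.75, completed the 12 lower genes together with Nppa and Tnnc1 of heart muscle. The smallest adjusted p among these was 0.38. Vch was at -0.26 without Air_D21T replicate 3, and Serpinb6b at -0.39 without PEP_D21T replicate 4.

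The largest difference in size among all tested genes belonged to a heart muscle gene, Myh6. Lung samples of rodents can carry these transcripts, since the pulmonary veins are sheathed in cardiac muscle. Which tissue gave them in these lungs was not tested. Of the 17 tested members of the cardiac list, 15 were lower in PEP_D21T lungs, 14 by 1.5-fold or more (1.10% of all tested genes), and 12 had an unadjusted p below 0.05 (5.58% of all tested genes), with a median difference of -1.77 and a smallest adjusted p of 0.38. Myh6, the atrial myosin heavy chain, had 10.56, 2.52, 2.67 and 5.05 in PEP_D21T lungs, against 5.33, 8.80, 10.06 and 10.98 in Air_D21T lungs. PEP_D21T replicate 1 was among the highest lungs and Air_D21T replicate 1 was close to PEP_D21T replicate 4, so the groups overlapped despite a fitted difference of -3.96 ± 1.61 (adjusted p = 0.844).

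The same lungs were high and low for Tnnc1 and for the list average. Tnnc1, the cardiac and slow muscle troponin C, had 7.46, 3.89, 4.02 and 3.17 in PEP_D21T lungs, against 4.47, 6.90, 7.10 and 7.96 in Air_D21T lungs (difference -2.11 ± 0.744, adjusted p = 0.804). Averaged over the list, PEP_D21T replicate 1 stood at 1.91 and the other PEP_D21T lungs between -1.76 and -1.37, while Air_D21T replicate 1 stood at -1.40 and the other Air_D21T lungs between 0.63 and 2.33. The hormone gene Nppa behaved otherwise: it was between 2.79 and 3.29 in PEP_D21T lungs and between 3.17 and 3.51 in 3 Air_D21T lungs, and only Air_D21T replicate 4, at 6.10, stood apart. Without that lung the Nppa difference was -0.27, and without Air_D21T replicate 2 it was -1.59 and passed the test (adjusted p = 0.0137). The list's median lay between -2.72 (without PEP_D21T replicate 1) and -0.99 (without Air_D21T replicate 4). Without an implant the cardiac list's median was also negative, at -0.95, with 16 of 17 members lower in PEP lungs.

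Airway secretory genes went with the heart muscle genes across these lungs. Bpifa1, an antimicrobial protein of the large airways, had 5.86, 3.26, 2.99 and 3.12 in PEP_D21T lungs, against 2.94, 5.29, 5.46 and 9.89 in Air_D21T lungs. As for Myh6, replicate 1 was the highest PEP_D21T lung and the lowest Air_D21T lung. The difference was -2.37 ± 1.1 (adjusted p = 0.869), and it was -0.74 without Air_D21T replicate 4 and -3.60 without Air_D21T replicate 1. On the list, 10 of the 11 tested airway secretory members were lower in PEP_D21T lungs, with a median of -0.38. The average of that list was 0.54 in PEP_D21T replicate 1 and -1.24 in Air_D21T replicate 1. Its median difference was -0.02 without Air_D21T replicate 4 and -0.99 without Air_D21T replicate 1. Chst9, a sulfotransferase on this list, differed by -0.81 ± 0.571. The motile cilia list had a median of -0.04, with 4 of its 11 tested members positive. Its average was also lowest in Air_D21T replicate 1, at -0.78. In PEP_D21T replicate 4 the cilia average was 0.40, while that of the secretory list was -0.33. How much large airway and pulmonary vein each sample held is not given in the sources used here, and the part of the heart muscle and airway levels in other differences was not tested.

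**Figure D4:**
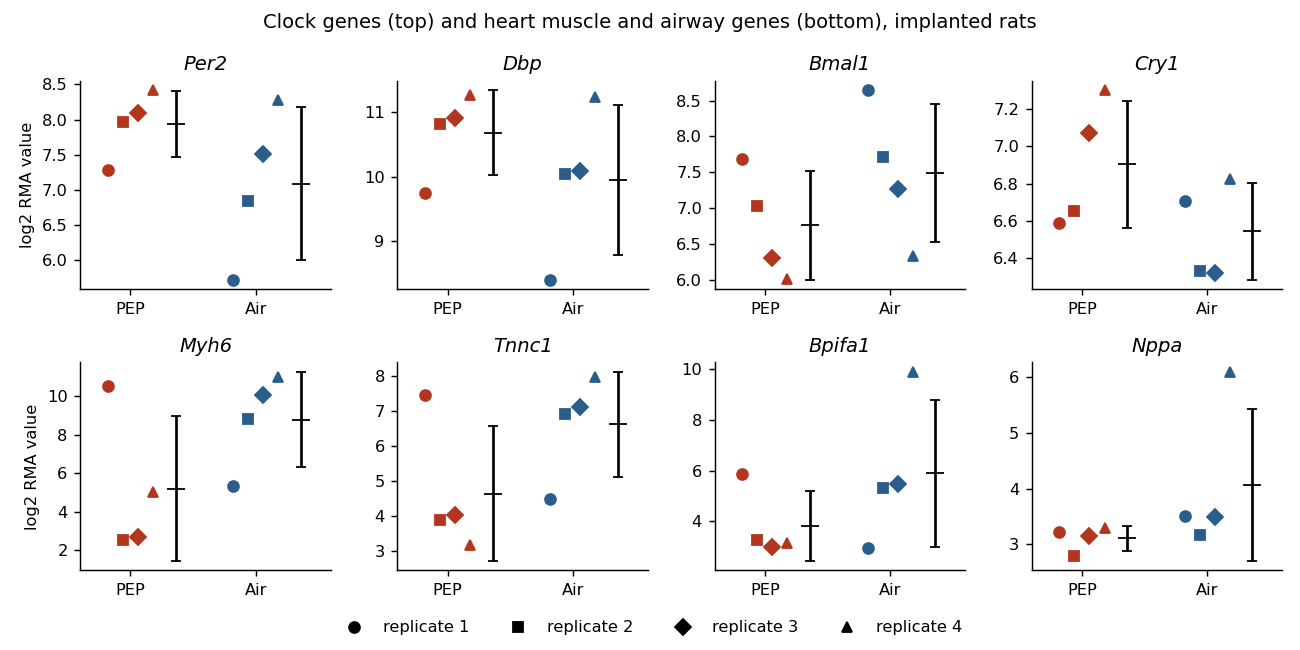
Log2 RMA values of 4 clock genes (top) and of 2 heart muscle genes, an airway gene and Nppa (bottom) in each implanted lung, PEP left and Air right, with the mean and SD beside the points. In both groups replicate 1 has the highest Bmal1 and the lowest Per2 and Dbp, and for Myh6 and Bpifa1 replicate 1 is the highest PEP lung but the lowest Air lung.

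All 11 tested clock genes overlapped between the groups. Over all tested genes, 1.98% had every PEP_D21T lung above every Air_D21T lung and 1.00% had every one below. The clock list's median difference was 0.32, with 7 of its members positive. It had 1 unadjusted p below 0.05 (Per2), where 5.58% of all tested genes had one. Per2, a repressor of the loop, had 7.28, 7.96, 8.09 and 8.41 in PEP_D21T lungs, against 5.72, 6.84, 7.50 and 8.28 in Air_D21T lungs, a difference of 0.80 ± 0.341 (adjusted p = 0.844). The groups overlapped, since Air_D21T replicate 4 exceeded 3 of the PEP_D21T lungs. Dbp, an output factor of the clock, had 9.74, 10.81, 10.90 and 11.26 in PEP_D21T lungs, against 8.41, 10.03, 10.09 and 11.23 in Air_D21T lungs (difference 0.67 ± 0.387, adjusted p = 0.95). Bmal1, the activator, had 7.69, 7.03, 6.31 and 6.01 in PEP_D21T lungs, against 8.64, 7.72, 7.26 and 6.34 in Air_D21T lungs (difference -0.65 ± 0.354, adjusted p = 0.936).

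Within each group the lung with the highest Bmal1 had the lowest Dbp and Per2, and the lung with the lowest Bmal1 had the highest. In both groups Bmal1 fell in the order of the replicate numbers, from replicate 1 to replicate 4, and Per2 and Dbp rose in that order. Against the Air_D21T lung of the same number, each PEP_D21T lung had higher Per2 and Dbp and lower Bmal1. The labels do not state that the numbers pair lungs. Cry1, a second repressor, did not follow this in replicate 1 (6.59 in PEP_D21T, 6.70 in Air_D21T). It differed by 0.32 ± 0.183 (adjusted p = 0.95). Without an implant Cry1 differed by 0.80 with an adjusted p of 0.0189, and a test of the difference between these effects gave an adjusted p of 0.741. The hour at which each lung was collected is not given in the sources used here, and its part in the clock values, and in the glucocorticoid-induced genes that follow a daily hormone rhythm, was not tested. Without Air_D21T replicate 1 the differences were 0.26 for Per2, 0.12 for Dbp and -0.19 for Bmal1, and without Air_D21T replicate 4 they were 1.36, 1.22 and -1.17. The median of the clock list was 0.11 without Air_D21T replicate 1, 0.16 without Air_D21T replicate 2 and 0.19 without PEP_D21T replicate 4.

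Immediate early genes, which cells switch on within minutes of a stimulus, had a median difference of 0.22, with 11 of 14 tested members positive. This rested on PEP_D21T replicate 2. Fos had 7.75, 10.49, 8.24 and 7.39 in PEP_D21T lungs, against 7.54, 8.29, 8.63 and 7.83 in Air_D21T lungs, and Atf3 had 6.63, 9.81, 6.05 and 6.60 in PEP_D21T lungs, against 6.75, 6.65, 8.10 and 6.67 in Air_D21T lungs. For both genes PEP_D21T replicate 2 was the highest lung and the other PEP_D21T lungs lay within or below the Air_D21T range. Garin4, for which the same lung stood apart, is annotated at or beside the Atf3 locus on chromosome 13. A link between the Garin4 and Atf3 values was not tested. Without PEP_D21T replicate 2 the differences turned to -0.25 for Fos and -0.57 for Atf3, and the list's median to -0.25. Both were named after their values were seen. Ier3 and Zfp36, the members with the smallest p, differed by 0.46 ± 0.165 and 0.56 ± 0.23 (adjusted p = 0.823 and 0.844). Both overlapped between the groups and were highest in PEP_D21T replicate 2, at 8.79 and 11.10. When 1 lung was left out, their differences were as low as 0.32 and 0.24. The heat shock list had 3 of 11 tested members with an unadjusted p below 0.05 (5.58% of all tested genes), Hspb1 (0.39), Hspa1b (0.64) and Trib3 (0.40), the last named after its values were seen, and the highest Hspa1b and Trib3 values again came from PEP_D21T replicate 2.

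The programs named at the outset for inhaled particles showed no gene that passed the test, where only 1 of all 8202 tested genes (0.0122%) did. Cyp1a1, an enzyme strongly induced through the aryl hydrocarbon receptor, was low in every implanted lung, at 2.94, 3.80, 3.81 and 3.53 in PEP_D21T lungs, against 4.12, 3.19, 3.98 and 3.72 in Air_D21T lungs. The groups overlapped, and the difference of means was -0.23 with p = 0.486 in an exact two-sided permutation test (70 splits, smallest possible p 0.0286). At day 21 without an implant Cyp1a1 ran between 4.26 and 10.9 in PEP lungs and between 3.41 and 8.20 in Air lungs, a fitted difference of 2.13, and the difference between the effects had an adjusted p of 0.834. The limma interval for implanted rats, whose error is shared over all 10 groups, ran between -2.78 and 2.42. Of the 7 tested receptor targets 4 were positive, with a median of 0.04.

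Antioxidant genes under NRF2 had a median of -0.15, with 3 of 8 tested members positive. Nqo1, a quinone reductase, had 9.03, 8.63, 8.87 and 8.66 in PEP_D21T lungs, against 8.55, 9.12, 9.30 and 9.50 in Air_D21T lungs (difference -0.35 ± 0.251, adjusted p = 0.998). Hmox1, the heme oxygenase, differed by -0.29 ± 0.146 (adjusted p = 0.899). The groups overlapped for both genes, and Air_D21T replicate 1 had the lowest Nqo1 of all 8 lungs. The cytokine and chemokine list had 21 tested members, 12 of them positive, and a median of 0.02. It had 0 members with an unadjusted p below 0.05 by limma (5.58% of all tested genes). Il1b, Il6, Tnf and Cxcl1 differed by 0.02, 0.07, 0.26 and -0.02, with standard errors between 0.204 and 0.253.

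All 13 tested interferon-stimulated genes had a negative difference, with a median of -0.22. Of them 0 had an unadjusted p below 0.05 by limma (5.58% of all tested genes). Ifit3, which binds foreign RNA, had 6.01, 6.19, 6.33 and 6.40 in PEP_D21T lungs, against 6.76, 7.10, 6.44 and 6.50 in Air_D21T lungs, without overlap (difference -0.48 ± 0.285, adjusted p = 0.95). Averaged over this list the groups overlapped, since Air_D21T replicate 2 stood highest at 0.63 and Air_D21T replicate 3 at -0.29, inside the PEP_D21T range of -0.44 to 0.17. Without an implant 10 of the 13 were higher in PEP lungs, with a median of 0.07. The implanted median was -0.0022 without Air_D21T replicate 2. Ly96, the co-receptor of Toll-like receptor 4, had 5.61, 5.29, 5.58 and 5.31 in PEP_D21T lungs, against 5.84, 6.10, 5.63 and 6.11 in Air_D21T lungs, without overlap (difference -0.51 ± 0.163, adjusted p = 0.734). Tlr7, a receptor for single-stranded RNA, differed by -0.34 ± 0.168 (adjusted p = 0.883). Their list of Toll-like receptors and particle sensing had 6 of 9 tested members positive, with a median of 0.06.

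Macrophage and repair genes gave single members rather than a list-wide order. Gpnmb and Trem2, both of lipid-handling macrophages, differed by -0.43 ± 0.169 and -0.53 ± 0.247, and Arg1, the arginase of alternatively activated macrophages, by -0.49 ± 0.214 with no overlap between groups. Their adjusted p was between 0.844 and 0.869, and the macrophage list as a whole had 7 of 13 members positive with a median of 0.03. The cholesterol synthesis list had 0 of 6 members positive and a median of -0.16, led by Idi1, the isopentenyl diphosphate isomerase, at -0.48 ± 0.202 (adjusted p = 0.844). In the lipid list, Elovl6, a fatty acid elongase, differed by -0.59 ± 0.272 with no overlap, and Cpt1a, the gate of mitochondrial fatty acid oxidation, by 0.31 ± 0.15 (adjusted p = 0.869 and 0.871).

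**Figure D5:**
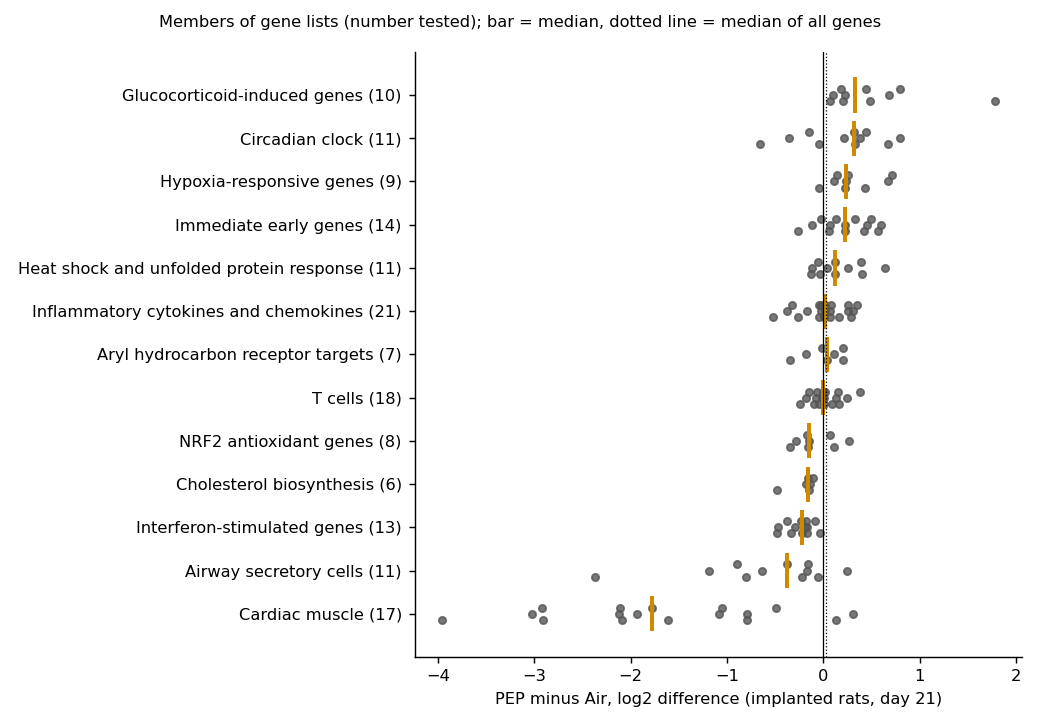
PEP minus Air log2 differences of the tested members of 13 gene lists in implanted rats. Each point is a gene, the bar is the list's median and the dotted line the median of all tested genes (0.03). All glucocorticoid-induced members lie right of 0, all interferon-stimulated and cholesterol members left of it, and the cardiac members spread to -3.96.

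Lymphocyte genes had smaller median differences with an implant than without one, though no test compared the lists. T cell genes had a median difference of -0.00138 in implanted rats, with 9 of 18 tested members positive, next to 0.47 and 17 of 18 without an implant. Genes of NK cells and cytotoxic granules had 0.09 and 12 of 18, next to 0.39 and 17 of 18, and B and plasma cell genes had -0.13 and 1 of 14, next to 0.34 and 11 of 14. Was, an actin regulator of blood cells, had 8.19, 8.21, 8.30 and 8.06 in PEP_D21T lungs, against 8.03, 8.09, 8.27 and 8.10 in Air_D21T lungs, a difference of 0.08 ± 0.144 whose 95% interval ran between -0.21 and 0.37. Without an implant the Was difference was 0.82 ± 0.121 with an adjusted p of 0.000128. The groups of implanted lungs overlapped for Was, and the interval does not reach the value seen without an implant, but the test of the difference between the effects gave an adjusted p of 0.529.

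All PEP_D21T lungs lay above all Air_D21T lungs for 1 of 18 T cell genes, 1 of 18 NK cell and cytotoxic genes and 0 of 14 B and plasma cell genes, where 1.98% of all tested genes did. Cd247, a signalling chain of the T cell receptor, differed by 0.25 ± 0.168 with overlap between the groups in implanted rats, next to 0.62 without an implant. Tcf7, a transcription factor of naive T cells, had 8.76, 8.67, 8.96 and 8.83 in PEP_D21T lungs, against 8.31, 8.63, 8.47 and 8.28 in Air_D21T lungs, without overlap (difference 0.38 ± 0.135, adjusted p = 0.823). Without an implant the Tcf7 difference was similar, at 0.43 (adjusted p = 0.0753 by limma). Gzmm, a granzyme, also had no overlap, at 6.97, 7.20, 6.99 and 7.26 in PEP_D21T lungs against 6.74, 6.95, 6.57 and 6.35 in Air_D21T lungs (difference 0.46 ± 0.187, adjusted p = 0.844). Its difference without an implant was 0.14. The B cell gene Ms4a1 had 7.39, 7.18, 6.51 and 5.89 in PEP_D21T lungs, against 7.05, 6.84, 7.86 and 7.20 in Air_D21T lungs, and its groups overlapped.

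Across all 8202 tested genes, the PEP effect with an implant minus the PEP effect without one gave 0 genes past an adjusted p below 0.05 (0% of those tested) by limma, with 554 at an unadjusted p below 0.05 and a smallest adjusted p of 0.529. That smallest value was shared by genes including Fam111a, Ankrd37 and Was. Of the 18 genes that passed the test at day 21 without an implant, 15 had the same sign in implanted rats, where 52.5% of all tested genes did, and none of them was Fam111a. Of the 466 tested genes on all 46 lists, 0 passed the test in implanted rats by limma, where 0.0122% of all tested genes did. Among the 45 lists with 5 or more tested members, 4 had a median above 0.2 (glucocorticoid-induced, clock, hypoxia and immediate early genes), 3 had one below -0.2 (cardiac, airway secretory and interferon-stimulated genes), and 38 lay between.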

How the data were processed

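For 50 arrays with 36685 probe sets the authors deposited log2 values made by RMA with the oligo package (R 3.4, per the submitters' processing notes). The RMA log2 scale includes quantile normalization, which removes a shift of most genes in 1 direction. Differences between dim signals are compressed on the RMA scale. Array medians of the 8 implanted lungs lay between 4.92 and 5.11. Arrays have no read depth, and 4 lungs a group limit the precision. Annotation tied 14824 sets to 1 gene and 829 to several, and 21032 are unnamed here. Of 14557 genes, 8202 had a variance of at least 0.05 over the series, the minimum in the study's methods, and were tested. Taking each gene by its brightest set and leaving out sets of several genes were choices made here. Symbols were updated through RefSeq records matched for 14670 sets.

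A 10-group model was fitted with limma 3.58.1 (R 4.3.3), array weights by the gene-by-gene method and moderated errors, and p-values were adjusted by Benjamini and Hochberg over all tested genes. The script was tested on simulated data. Cyp1a1 was compared by an exact permutation test (scipy). List averages centre each tested member on its mean over the 8 lungs. Named genes were the 12 smallest p per direction among genes at 1.5-fold or more, leaving out uncharacterised loci and olfactory receptors, the 2 smallest p of each list, and a fixed set. Members, lists and rules were chosen with earlier results of these data known. The promoter sequences are RefSeq, GRCr8. Alternatives changed the weights, filters, centring, moderation, arrays, probe set rule and replicate block, and left out each implanted lung in turn.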

Additional observations from a re-analysis of the deposited data

Results flagged for a closer look

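In each group of 4 lungs, 1 lung was looked for whose distance from its neighbour took up nearly the whole range of the group. Among the 222 groups of 4 examined (named genes and list averages), 16 had such a lung, and chance alone gives about 1 in 20. Part of these were already described beside their genes. In PEP_D21T they were replicate 3 for Fam111a (7.91, the others 4.64 to 4.92), replicate 2 for Garin4 (6.58), Klk13 (4.53, the others 3.76 to 3.87) and Atf3 (9.81), and replicate 1 for Bpifa1 (5.86) and, on the low side, Pfkfb3 (8.46, the others 9.11 to 9.24). In Air_D21T they were replicate 4 for Hif3a (5.05, the others 4.30 to 4.36) and Nppa (6.10), replicate 2 for Cntfr (6.69, the others 6.31 to 6.32) and replicate 3 for Atf3 (8.10, the others 6.65 to 6.75).

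For list averages they were PEP_D21T replicate 1 for cardiac muscle (1.91) and for fatty acid and lipid metabolism (0.34, the others -0.25 to -0.19), and PEP_D21T replicate 2 for immediate early genes (1.01, the others -0.36 to -0.14). In Air_D21T, replicate 3 was low for mesenchyme and fibroblasts (-0.44, the others 0.06 to 0.12), and replicate 1 was low for smooth muscle (-0.45, the others 0.07 to 0.13) and for wound repair genes (-0.18, the others 0.12 to 0.17). No named gene passed the test of a difference between the PEP effects with and without an implant.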

How the results depend on the processing

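The count of genes that passed the test was 0 with equal array weights, without the variance filter, with robust moderation, with only the 8 arrays and with the replicate block, and between 0 and 4 when 1 lung was left out: 2 without PEP_D21T replicate 1 (Ibsp, Mmp13) and 4 without Air_D21T replicate 2 (Fam111a, Itln1, Mmp13, Nppa). The Fam111a difference lay between -3.15 and -2.02 when 1 lung was left out, and its adjusted p by limma between 6.39e-06 (without PEP_D21T replicate 3) and 0.354. It passed without Air_D21T replicate 2 or PEP_D21T replicate 3 and without none of the other 6 lungs, and over the other settings it lay between 0.0256 and 0.974. Genes at 1.5-fold or more numbered 73 when genes with a mean below 5 were left out and between 165 and 284 when 1 lung was left out (247 without Air_D21T replicate 1, 261 without Air_D21T replicate 2). The difference between the PEP effects with and without an implant gave 0 to 1 genes (Itln1 or Fam111a) when 1 lung was left out. Directions turned for Il1b with equal weights (-0.0276) and with the replicate block (-0.0403), and, when 1 lung was left out, within ranges of -0.25 to 1.04 for Fos, -0.57 to 0.96 for Atf3, -0.12 to 0.21 for Il6, -0.22 to 0.25 for Il1b and -0.12 to 0.0564 for Cxcl1. Of 65 genes examined, 32 moved by over 1.5 times or turned sign when 1 lung was left out. The causes were not tested. Over all tested genes, lungs with the same replicate number did not deviate together (r = -0.356, 0.0118, -0.281 and 0.00823), so the numbers were not taken as pairs. The clock genes Bmal1, Per2 and Dbp did follow the replicate number in both groups. The replicate block gave 176 genes at 1.5-fold or more.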
